A study of Mus musculus with 45 samples.

Results

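The 10 genes described here encode an FGF ligand (*Fgf4*), the 4 FGF receptors (*Fgfr1* to *Fgfr4*) and 5 feedback inhibitors of the ERK pathway (*Dusp4*, *Dusp6*, *Spry2*, *Spry4* and *Spred1*). They were chosen by symbol, and all 10 were found once among the 55385 genes of the deposited RNA-seq tables. They were followed through 18 RNA-seq libraries of mouse late two-cell embryos (3 libraries for each treatment), morulae, E4.5 inner cell mass (ICM) and 2iES cells (2 libraries for each treatment). Every library, controls included, came from Gabpa dTAG/dTAG material, in which both alleles of *Gabpa* carry a degron tag, so that the tagged transcription factor GABPA is destroyed when the small molecule dTAG13 is added. Controls received the solvent DMSO. Two-cell embryos had 1 μM dTAG13 from 6 to 30 h post fertilization (hpf), morulae had 1 μM from the four-cell stage, and the ICM had 1 μM from 84 to 100 hpf. The 2iES cells had 0.5 μM for 24 h. Embryos came from in vitro fertilization and were cultured in KSOM. The ICM was freed of trophectoderm (TE) by immunosurgery and holds both epiblast (EPI) and primitive endoderm (PrE) cells. The 2iES cells derive from E14 ES cells, from single picked clones, and grow with LIF, an inhibitor of the kinase GSK3 and 0.5 μM of the MEK inhibitor PD0325901.

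FGF ligands bind receptor tyrosine kinases at the cell surface, and the signal passes through RAS, RAF and MEK to the kinase ERK. ERK in turn raises the expression of genes that damp the pathway, among them the DUSP phosphatases, which remove the activating phosphates from ERK, and the Sprouty and Spred proteins, which act between the receptor and RAF. In the mouse blastocyst EPI cells secrete FGF4, and cells that respond to it through FGFR1 and FGFR2 take the PrE fate. In 2iES cells MEK is blocked, so that signals from the receptor reach ERK only weakly.

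*Fgf4* (ENSMUSG00000050917.5, chromosome 7, plus strand, GRCm38) has 2 annotated transcripts. The long one (ENSMUST00000060336.4, 144861386 to 144865243) has 3030 bases and the short one has 395 bases. The 250 bases before the start of the long one are shown, because it carries the full coding sequence and was the transcript counted in the ICM and in 2iES cells. CG dinucleotides are in capitals.
Before the long transcript, chr7:144861136-144861385, plus strand (RefSeq, GRCm38.p6): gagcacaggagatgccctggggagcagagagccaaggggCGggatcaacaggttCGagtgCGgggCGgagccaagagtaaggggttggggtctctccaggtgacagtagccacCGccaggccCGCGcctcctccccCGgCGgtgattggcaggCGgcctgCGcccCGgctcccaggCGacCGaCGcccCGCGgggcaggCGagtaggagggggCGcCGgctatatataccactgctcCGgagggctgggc
This stretch holds 21 CG dinucleotides and is 71.2% G or C. Over the 32851 promoters of the RefSeq table the median was 6 CG dinucleotides in the same 250 bases, and 16.3% of them had 21 or more. One exact form of the ETS motif that GABPA recognises, CCGGAAG or CTTCCGG on the other strand, was not found in it. Entries of the table were matched for *Fgf4*, *Fgfr2*, *Fgfr3* (2 entries), *Fgfr4*, *Dusp6*, *Spry2* and *Spred1*. None of these 8 entries held this exact form in its 300 bases, which 2910 of the 32851 promoters (8.9%) did. Other forms of the motif were not searched for. The absence of these letters from a short window says nothing about such forms within it or about binding of the factor elsewhere.

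Expected counts summed to between 20449966 and 23718870 in two-cell libraries, 9457933 and 12382705 in morulae, 18266057 and 20818291 in the ICM, and 20146785 and 27660132 in 2iES cells. *Gabpa* mRNA was not a check of the treatment, since dTAG13 acts on the protein. Its level rose with dTAG13 in two-cell embryos (log2 fold change 0.52), in the ICM (0.95) and in 2iES cells (0.93), and its change of 0.74 in morulae did not pass the test (adjusted p = 0.15). In control ICM the 11 EPI markers summed to 1127 to 1166 TPM, the 11 PrE markers to 685 to 692 TPM and the 11 TE markers to 84.6 to 88.6 TPM, with *Elf5* and *Krt7* of the TE list under 0.1 TPM. In control 2iES cells EPI markers summed to 823 to 842 TPM and PrE markers to 4.23 to 6.48 TPM, with *Cubn*, *Foxa2*, *Gata4*, *Gata6*, *Pdgfra* and *Sox7* under 0.1 TPM. Levels below are in TPM, the share of all transcripts after counts are divided by transcript length, and fold changes are of counts after scaling between libraries, on the log2 scale, with the standard error (SE).

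dTAG13 was followed by changes of these genes in the ICM and in 2iES cells, while at the earlier stages none passed the test. In two-cell embryos 0 of the 9 members tested by edgeR had an adjusted p under 0.05, against 8.56% of all genes tested, and 2 of them, *Fgfr1* and *Spry4*, had one with DESeq2. The unadjusted p was under 0.05 for both in edgeR, at 0.0071 and 0.0058, and above it for the other members tested. Of all genes tested 21.3% had an unadjusted p under 0.05. In morulae the count was 0 of 10 with edgeR, against 0.366% of all genes, and 0 of 10 with DESeq2. There 0 had an unadjusted p under 0.05 in edgeR, against 13.6% of all genes. In the ICM 7 of 10 members passed, 3 higher and 4 lower, against 76.9% of all genes, 38.4% higher and 38.5% lower. In 1 fit over all 18 libraries, where the ICM takes the wider spread of the other stages, 2 of the 7 kept their call, *Fgf4* and *Spry4*, and with DESeq2 5 did, without *Fgfr3* and *Spred1*. The ICM replicates lay closer together than those of the other stages, and which embryos went into each library is not given in the sources used here, so that these p-values measure only the spread between the libraries. In 2iES cells 5 of 8 passed, 3 higher and 2 lower, against 54.6% of all genes, 26.5% higher and 28.1% lower. The shares of members that changed in the ICM and in 2iES cells were thus near those of all genes. *Fgfr3* in two-cell embryos and *Fgfr3* and *Dusp4* in 2iES cells had too few counts to be tested.

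**Figure D1:**
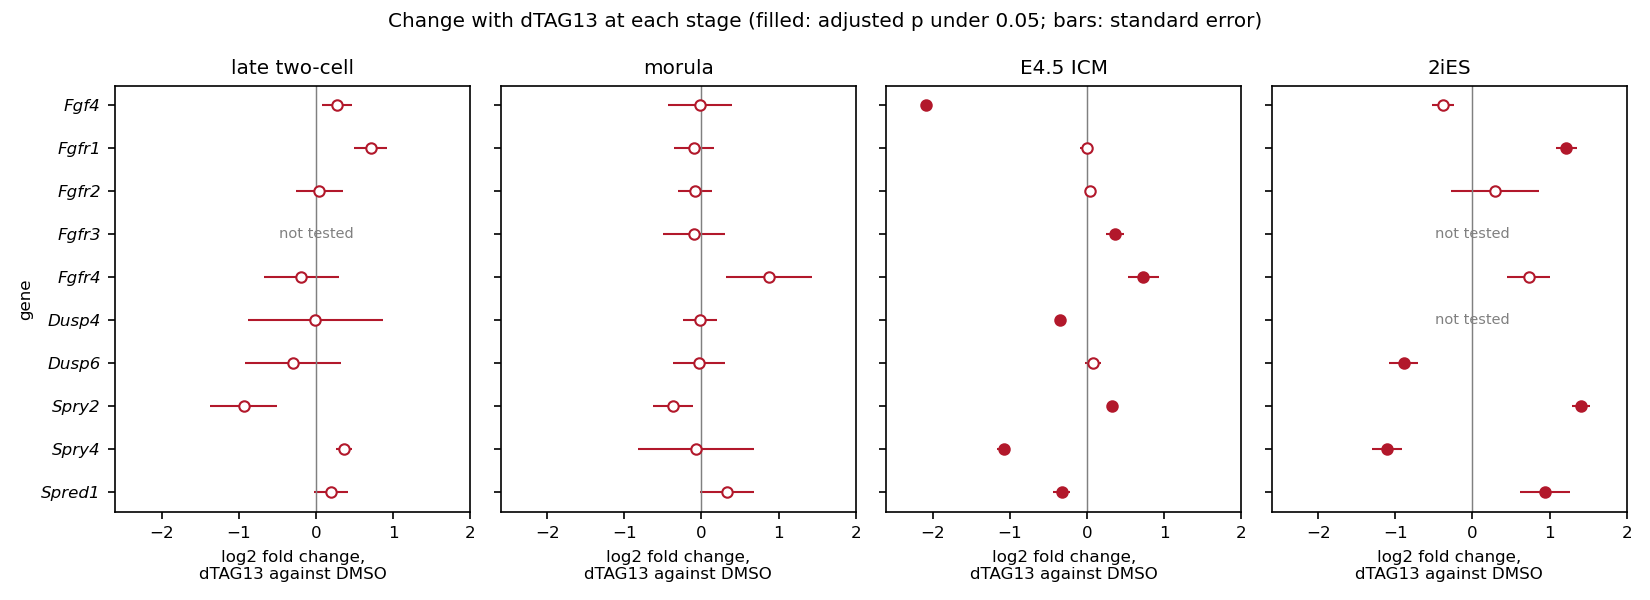
Log2 fold change of each of the 10 genes with dTAG13 against DMSO at the 4 stages, with its standard error as bars and filled points for an adjusted p under 0.05 (edgeR). The points are open throughout the late two-cell and morula panels, *Spry4* is the only gene filled left of 0 in both the ICM and the 2iES panel, and the point farthest left is *Fgf4* in the ICM at -2.09.

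*Fgf4*, the ligand, had the largest change of the 10 genes, a 4.25-fold lower level in dTAG13-treated ICM. The control ICM libraries held 22.6 and 22.6 TPM and the treated ones 5.55 and 5.42 TPM, so that the groups lay far apart. The log2 fold change was -2.09 (SE 0.07, n = 2 and 2, adjusted p = 1.88e-26). In 2iES cells *Fgf4* was at 10.5 and 11.6 TPM with DMSO and at 8.46 and 7.74 TPM with dTAG13. These groups did not overlap either, but the log2 fold change of -0.38 (SE 0.14) missed the threshold (adjusted p = 0.060). With every library kept and no filter on low counts it passed (-0.45, SE 0.17, adjusted p = 0.031). Without DMSO replicate 1 the log2 fold change was -0.49, and without DMSO replicate 2 it was -0.31. These last fits hold 1 control library and take the spread from the treated pair alone, so that they do not settle the call. In morulae *Fgf4* was low in every library, at 2.37 and 1.19 TPM with DMSO and 2.39 and 1.20 TPM with dTAG13, a log2 difference of -0.01 (SE 0.41, adjusted p = 0.99).

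In bulk ICM fewer cells of a type and less RNA in each cell cannot be told apart from these libraries. The study chose this time of collection so that the numbers of EPI and PrE cells would not yet confound the comparison, from cell counts that were not analysed here. With dTAG13 the summed level of the EPI markers was 623 to 627 TPM in the ICM, that of the PrE markers 1315 to 1327 TPM and that of the TE markers 799 to 800 TPM. Of the EPI markers 11 of 11 fell, of the PrE markers 8 rose and 2 fell, and of the TE markers 10 of 11 rose. No marker of these 3 lists was under 0.1 TPM in treated ICM. The part of these shifts in the changes of *Fgf4*, of the other 9 genes and of the pathway lists in the ICM was not tested. In 2iES cells EPI markers summed to 490 to 527 TPM after dTAG13, PrE markers to 6.89 to 7.41 TPM and TE markers to 136 to 142 TPM, against 113 to 145 TPM for TE markers with DMSO.

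By the gene's total TPM *Fgf4* was highest in two-cell embryos, at 46.9, 61.6 and 38.1 TPM with DMSO and 70.1, 70.1 and 58.9 TPM with dTAG13. The groups overlapped by 1 library, and the log2 fold change of 0.27 (SE 0.20) did not pass the test (adjusted p = 0.50). This order does not hold for the long transcript. The mean transcript length that RSEM gives for the gene fell between the lengths of the 2 transcripts, at 829 to 848 bases in the DMSO libraries, and from it the short transcript made up 82.8 to 83.5% of the TPM with DMSO and 82.6 to 86.1% with dTAG13. The long transcript, with the full coding sequence of 606 bases, was then at 8.19 ± 2.19 TPM with DMSO and 10.0 ± 0.27 TPM with dTAG13 (SD, n = 3). In the ICM and in 2iES cells the mean length was 3030 bases in all 8 libraries, which puts the share of the short transcript at 0. The level of the long transcript was therefore highest in control ICM, at 22.6 ± 0.04 TPM (SD, n = 2). Control 2iES cells came second by group mean, at 11.1 ± 0.77 TPM, but their range overlapped that of two-cell controls. Two-cell DMSO replicate 2 was at 10.6 TPM and 2iES DMSO replicate 1 at 10.5 TPM. In morulae, with 38 to 64 counts for the gene, the share ranged from 0 to 41.8%, too few counts to rank the libraries. The 2 transcripts share sequence, the kit keeps no strand, and the split is RSEM's estimate.

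**Figure D2:**
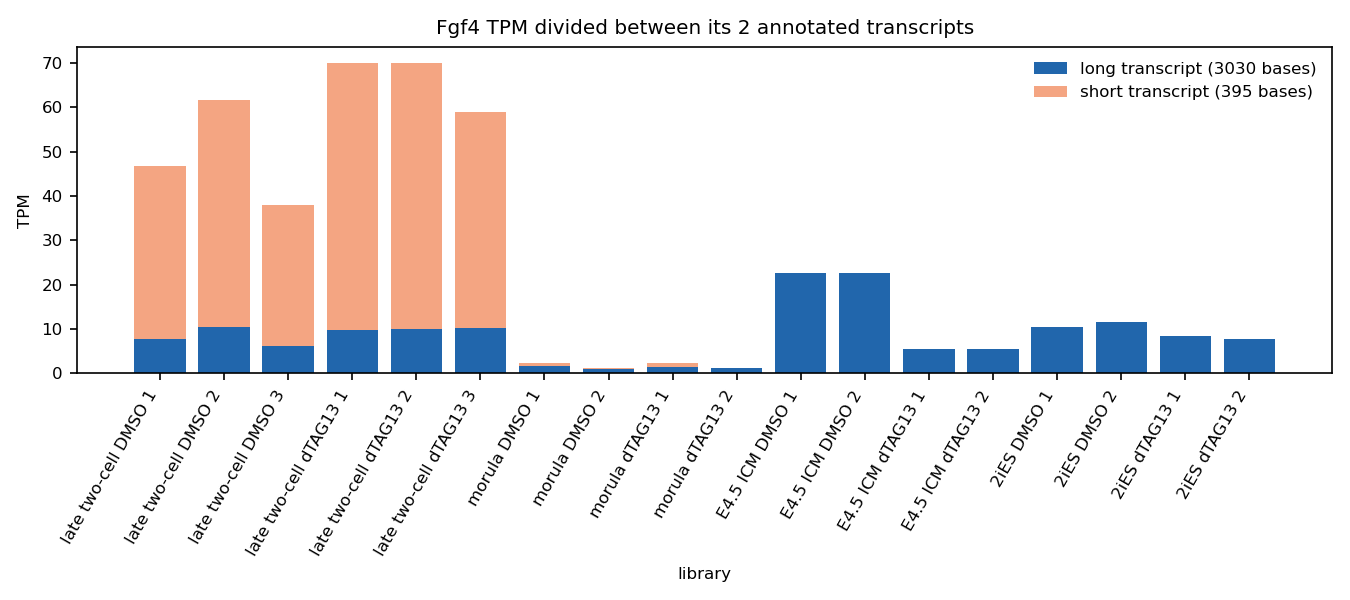
*Fgf4* TPM in each of the 18 libraries (horizontal axis), divided between the long transcript and the short transcript by the mean transcript length in the deposited tables. The short transcript fills most of each two-cell bar and is absent from the ICM and 2iES bars, where the control ICM stands highest at 22.6 TPM.

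From one control stage to the next, in a fit over the 9 DMSO libraries, the total *Fgf4* count fell from two-cell embryos to morulae (log2 fold change -2.79, SE 0.31, adjusted p = 5.06e-06) and rose from morulae to the ICM (3.71, SE 0.33, adjusted p = 3.14e-06). From the ICM to 2iES cells the log2 fold change of -0.41 (SE 0.27) did not pass the test (adjusted p = 0.25), although the TPM of these groups, 22.6 ± 0.04 against 11.1 ± 0.77, lay apart. This step passed with library totals (-0.88, adjusted p = 0.019), with limma on log2(TPM + 1) (-0.97, adjusted p = 0.016) and in a fit of the 2 neighbouring groups (-0.49, adjusted p = 0.013). Of the 10 members 7 passed at the first step, against 69.3% of all genes, 3 at the second, against 45.7% (9 by limma on TPM and 5 in a fit of the 2 neighbouring groups), and 5 at the third, against 42.6%. Stage and library preparation cannot be told apart in these steps.

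Among the receptors *Fgfr2* was the most abundant in morulae and ICM and *Fgfr1* in 2iES cells. *Fgfr2* (ENSMUSG00000030849.18, chromosome 7 from 130162451 to 133123350, minus strand) encodes a receptor through which PrE cells respond to FGF4. It rose from 2.47, 2.49 and 2.84 TPM in control two-cell embryos to 15.7 and 18.4 TPM in morulae, and to 30.7 and 32.1 TPM in the ICM. The log2 fold changes were 3.30 (SE 0.23, adjusted p = 7.65e-08) and 0.80 (SE 0.23, adjusted p = 0.014), the second of which lost its call without morula DMSO replicate 1 (0.75, adjusted p = 0.082) and without either ICM library (0.73 for both, adjusted p = 0.12). In 2iES cells it was at 0.51 and 0.22 TPM, lower than in the ICM by 6.13 on the log2 scale (log2 fold change -6.13, SE 0.31, adjusted p = 6.55e-08). *Fgfr2* therefore made up 79.5% of the summed receptor TPM in control ICM and 8.2% in control 2iES cells. With dTAG13 *Fgfr2* was at 33.9 and 34.9 TPM in the ICM, above both controls, and the log2 difference of its counts, 0.03 (SE 0.05), did not pass the test (adjusted p = 0.49). Its counts are not whole numbers in most libraries. Reads that fit other genes too can give this, which was not tested. The annotated gene spans an unusually long stretch.

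*Fgfr1* (ENSMUSG00000031565.18, chromosome 8 from 25513654 to 25575718, plus strand) encodes the receptor present in all cells of the early ICM and in ES cells. It rose 2.33-fold with dTAG13 in 2iES cells, from 3.62 and 3.62 TPM to 8.18 and 7.96 TPM (log2 fold change 1.22, SE 0.14, adjusted p = 6.01e-04). It made up 79.6 to 85.4% of the summed receptor TPM in control 2iES cells and 85.0 to 89.2% after dTAG13, while the sum went from 4.24 to 4.55 TPM to 8.92 to 9.62 TPM. In the ICM the treated libraries had more TPM, 6.30 and 5.48 against 4.39 and 4.62, without overlap. The counts overlapped, at 420 and 392 against 429 and 411 (log2 fold change 0.00, SE 0.09, adjusted p = 0.98), and the gap in TPM came with a shorter mean transcript length, 3483 and 3640 bases against 4470 and 4469. In two-cell embryos dTAG13 libraries were at 2.92, 3.55 and 4.61 TPM against 2.11, 1.38 and 1.84 TPM, again without overlap, and the log2 fold change of 0.71 (SE 0.21) missed the threshold (adjusted p = 0.070). Morulae held 6.55 and 3.94 TPM with DMSO and 4.21 and 4.31 TPM with dTAG13. *Fgfr1* rose from control two-cell embryos to morulae (1.82, SE 0.23, adjusted p = 1.77e-05) and then stayed between 3.62 and 6.55 TPM in every control library, with no later step past the test.

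*Fgfr3* (ENSMUSG00000054252.18, chromosome 5 from 33721674 to 33737068, plus strand), a receptor also found in PrE cells, was found mainly in morulae and ICM. Two-cell controls held 3, 0 and 0 counts and control 2iES cells 0 and 1 count. Morulae had 1.20 and 0.78 TPM and control ICM 2.65 and 2.68 TPM. Per total count the control morulae had 103 times the level of two-cell controls (98 counts against 3, 95% counting interval 34.3 to 509), and the control ICM had 610 times that of 2iES controls (443 counts against 1, interval 109 to 24130). The intervals cover counting error only. With dTAG13 *Fgfr3* rose in the ICM to 3.97 and 3.88 TPM (log2 fold change 0.37, SE 0.11, adjusted p = 0.0042), a call that DESeq2 did not make (adjusted p = 0.072). *Fgfr4* (ENSMUSG00000005320.9, chromosome 13 from 55152640 to 55168759, plus strand), the fourth receptor, was low throughout and reached its highest level in treated ICM, at 1.73 and 1.40 TPM against 0.86 and 0.97 TPM in controls. It rose there by 0.73 on the log2 scale (SE 0.20, adjusted p = 0.0016). In 2iES cells the same fold, 0.73 (SE 0.28), from 0.42 and 0.39 TPM to 0.59 and 0.69 TPM, missed the threshold (adjusted p = 0.061) and passed with upper-quartile scaling (0.91, adjusted p = 0.029) or with at least 10 counts required in every library (0.78, adjusted p = 0.038). No step between control stages passed for *Fgfr4* in edgeR. Its group means elsewhere ran from 0.40 to 0.92 TPM, and neighbours in the order of all groups overlapped. Among controls alone the ICM libraries lay above those of morulae, at 0.43 and 0.36 TPM, and of 2iES cells. With limma on log2(TPM + 1) the step into the ICM (0.46, adjusted p = 0.039) and that to 2iES cells (-0.45, adjusted p = 0.048) passed.

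**Figure D3:**
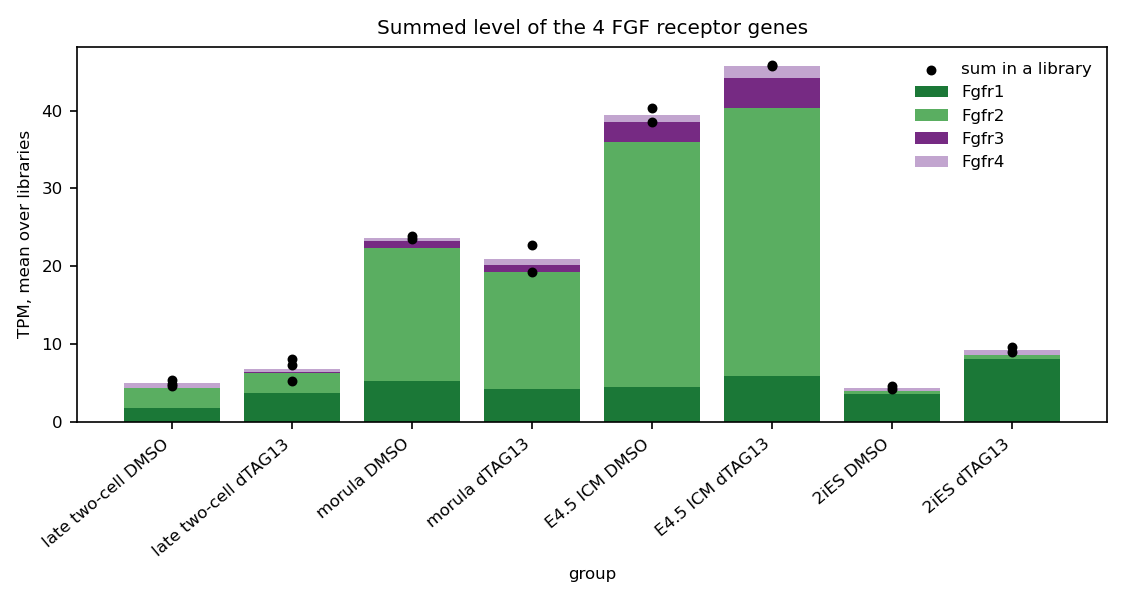
Summed TPM of the 4 receptor genes in each group (bars, mean over libraries, stacked by gene), with the sum of each library as a point. *Fgfr2* fills most of the bar in morulae and ICM, and *Fgfr1* fills most of the low bars of 2iES cells, whose sums went from 4.24 to 4.55 TPM with DMSO to 8.92 to 9.62 TPM with dTAG13.

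The DUSP genes encode phosphatases that act on ERK, in the nucleus for *Dusp4* and in the cytoplasm for *Dusp6*. *Dusp4* (ENSMUSG00000031530.6, chromosome 8 from 34807297 to 34819894, plus strand) was at 7.57 and 8.38 TPM in control morulae and 12.0 and 12.6 TPM in control ICM. It was close to absent from two-cell controls (2, 10 and 16 counts) and 2iES controls (7 and 7 counts). The rise into morulae was 5.95 on the log2 scale (SE 0.41, adjusted p = 7.72e-08) and the log2 fold change from the ICM to 2iES cells was -6.58 (SE 0.50, adjusted p = 1.68e-06). With dTAG13 *Dusp4* fell in the ICM to 10.3 and 9.67 TPM (log2 fold change -0.34, SE 0.07, adjusted p = 6.39e-05), without overlap between the groups.

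*Dusp6* (ENSMUSG00000019960.8, chromosome 10 from 99263231 to 99267489, plus strand) was at 7.71 and 5.91 TPM in control 2iES cells and at 6.44 and 5.36 TPM in control ICM, ranges that overlap. The log2 fold change from the ICM to 2iES cells, 0.81 (SE 0.45), did not pass the test (adjusted p = 0.17), and it passed in a fit of the 2 neighbouring groups (0.73, adjusted p = 0.0075) and with no filter on low counts (0.86, adjusted p = 0.031). dTAG13 lowered it in 2iES cells to 3.18 and 3.72 TPM (log2 fold change -0.89, SE 0.18, adjusted p = 0.0065). This call was lost in 1 fit over all 18 libraries (-0.83, SE 0.52, adjusted p = 0.25) and without dTAG13 replicate 1 (-0.78). In the ICM it was at 6.01 and 6.14 TPM after dTAG13, between the control libraries, with a log2 difference of 0.08 (SE 0.10, adjusted p = 0.49). Two-cell libraries scattered widely, from 0.60 to 2.50 TPM with DMSO and from 0.81 to 2.68 TPM with dTAG13. The step from control two-cell embryos to morulae, 0.95 (SE 0.44, adjusted p = 0.074), passed only without two-cell DMSO replicate 1 among the libraries left out (1.59, adjusted p = 0.0023). It also passed with upper-quartile scaling (1.12, adjusted p = 0.037) and with no filter on low counts (0.87, adjusted p = 0.015).

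The Sprouty genes *Spry2* and *Spry4* moved in opposite directions in both later systems. *Spry2* (ENSMUSG00000022114.5, chromosome 14 from 105891947 to 105896819, minus strand) rose 2.66-fold with dTAG13 in 2iES cells, from 15.9 and 17.3 TPM to 41.2 and 42.4 TPM (log2 fold change 1.41, SE 0.12, adjusted p = 2.01e-04). In the ICM it rose from 15.7 and 16.3 TPM to 21.4 and 19.9 TPM (0.33, SE 0.07, adjusted p = 3.04e-05). The groups lay apart in both. In morulae it was at 10.9 and 7.88 TPM with DMSO and 7.05 and 7.43 TPM with dTAG13, and in two-cell embryos at 1.83, 0.99 and 1.43 TPM and 1.06, 0.39 and 0.88 TPM, with log2 fold changes of -0.37 (SE 0.26, adjusted p = 0.56) and -0.94 (SE 0.44, adjusted p = 0.25). Among controls it rose from two-cell embryos to morulae (3.04, SE 0.25, adjusted p = 3.43e-07). Its difference from the ICM to 2iES cells, 0.67 (SE 0.25, adjusted p = 0.045), lost its call without any 1 of the 4 libraries, with values from 0.57 to 0.76, and with library totals (0.20) or limma on log2(TPM + 1) (0.05), and the TPM ranges of these groups overlapped.

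*Spry4* (ENSMUSG00000024427.7, chromosome 18 from 38586247 to 38601415, minus strand) fell with dTAG13 in the ICM from 6.79 and 6.84 TPM to 3.27 and 3.38 TPM (log2 fold change -1.08, SE 0.08, adjusted p = 1.01e-14). In 2iES cells it fell from 2.27 and 2.42 TPM to 0.94 and 1.13 TPM (-1.11, SE 0.19, adjusted p = 0.0030). These were changes of 2.11-fold and 2.16-fold, with no overlap in either system. In two-cell embryos, where it was highest, it stood at 14.6, 12.7 and 14.9 TPM with DMSO and 18.4, 18.3 and 20.3 TPM with dTAG13, without overlap, but the log2 fold change of 0.36 (SE 0.10) missed the threshold (adjusted p = 0.061). Morulae held 0.21 and 0.17 TPM with DMSO and 0.29 and 0.08 TPM with dTAG13. Between control stages it thus fell into morulae (-5.89, SE 0.25, adjusted p = 1.70e-09), rose into the ICM (4.80, SE 0.25, adjusted p = 5.93e-08) and was lower in 2iES cells (-0.92, SE 0.18, adjusted p = 0.0014). The order of its 8 group means ran from treated two-cell embryos, at 19.0 TPM, through the ICM and 2iES cells to morulae, at 0.19 TPM, and only the 2 morula groups at its end overlapped.

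*Spred1* (ENSMUSG00000027351.14, chromosome 2 from 117121374 to 117182279, plus strand), whose protein keeps RAS inactive, stayed between 1.00 and 3.02 TPM in every library. In 2iES cells it rose with dTAG13 from 1.15 and 1.88 TPM to 3.02 and 2.50 TPM (log2 fold change 0.94, SE 0.32, adjusted p = 0.043), a call lost without dTAG13 replicate 1 (0.85, adjusted p = 0.088) or dTAG13 replicate 2 (0.97, adjusted p = 0.10) and with limma on log2(TPM + 1) (0.59, adjusted p = 0.057). In the ICM the count fell by 0.33 on the log2 scale (SE 0.11, adjusted p = 0.0081), a call lost without DMSO replicate 1 (-0.24, adjusted p = 0.12), with DESeq2 (adjusted p = 0.086) and with upper-quartile scaling (-0.22, adjusted p = 0.067), while the TPM of 2.88 and 2.60 with dTAG13 and 2.69 and 2.31 with DMSO overlapped. The estimated share of its short transcript (1440 bases, against 6016 for the long one) was 32.4 to 37.8% of the TPM in treated ICM and 1.81 to 6.76% in control ICM. The long transcript was at 2.39 ± 0.17 TPM with DMSO and 1.77 ± 0.03 TPM with dTAG13 (SD, n = 2).

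**Figure D4:**
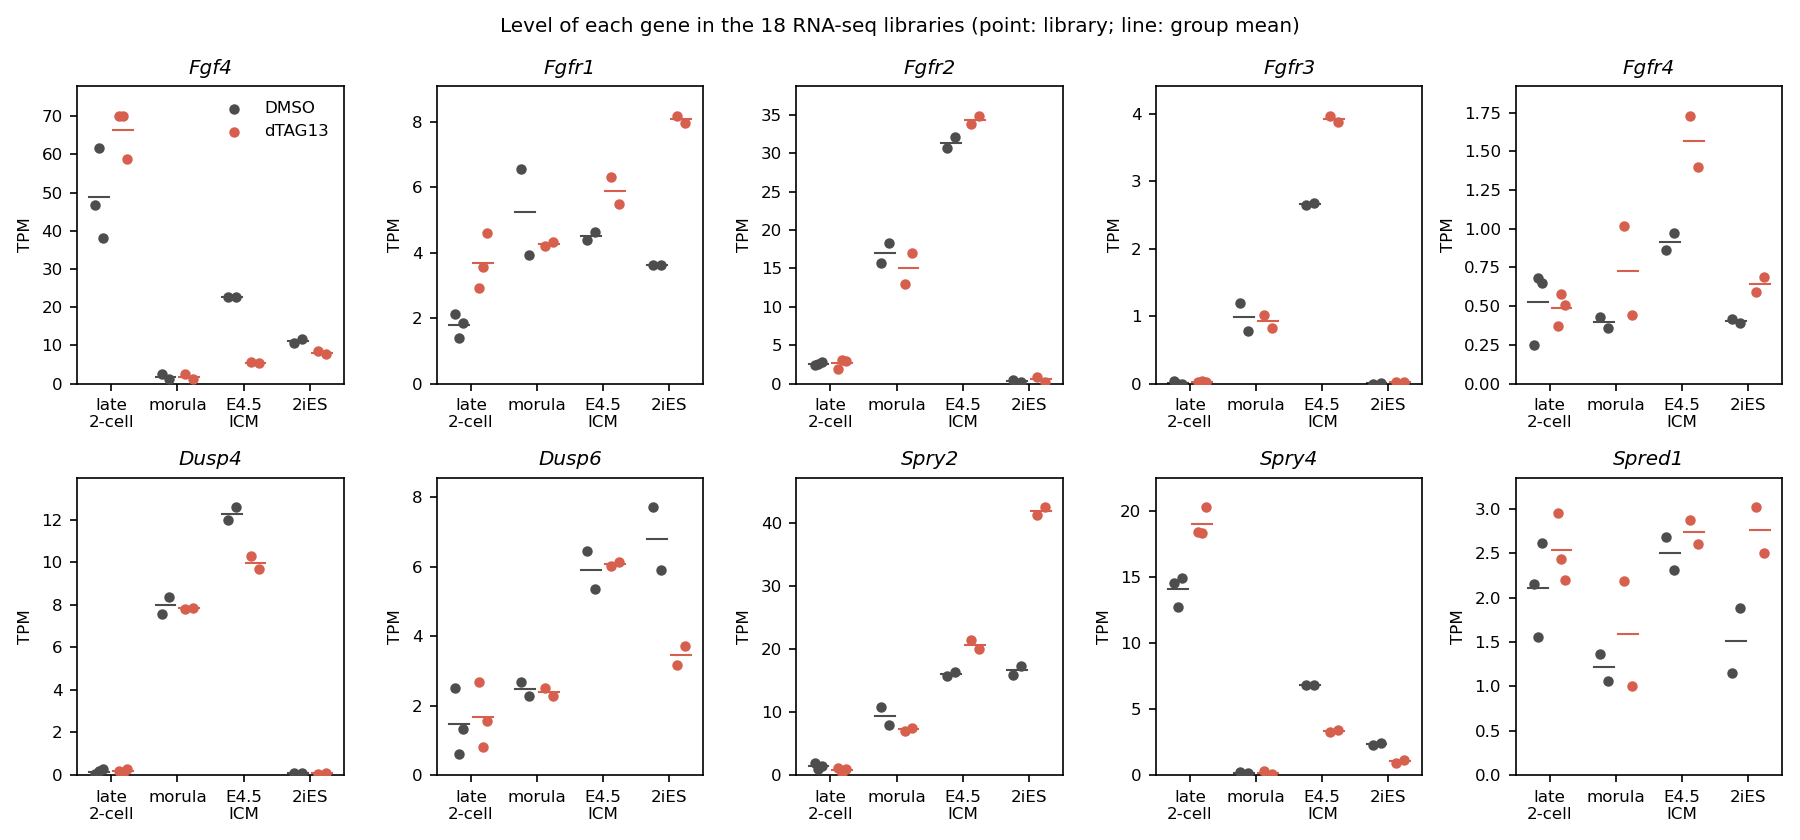
TPM of each gene in each library (points, with a line at the group mean) by stage and treatment, each panel with its own axis from 0. *Spry2* stands highest in treated 2iES cells at 41.2 and 42.4 TPM, *Spry4* in two-cell embryos, and *Fgfr2*, *Fgfr3* and *Dusp4* in morulae and ICM.

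The effects of dTAG13 in the ICM and in 2iES cells were compared by an interaction term over these 8 libraries, since ERK signalling is open in the embryo and blocked at MEK in the cells. Of the 10 members 5 differed, against 41.9% of all genes. *Fgfr3*, with 0 to 2 counts in the 2iES libraries, and *Dusp4*, with 5 to 7, entered this fit only through their ICM counts. Their effects in 2iES cells could not be measured, so for them the term does not compare the 2 systems. *Fgf4* changed more in the ICM, by -1.73 on the log2 scale relative to 2iES cells (SE 0.15, adjusted p = 3.61e-05). *Fgfr1* (-1.24, SE 0.15, adjusted p = 2.65e-04) and *Spry2* (-1.10, SE 0.14, adjusted p = 2.64e-04) had the higher change in 2iES cells. *Dusp6* was the only member with the difference in the other direction (0.95, SE 0.21, adjusted p = 0.0055), as it fell in 2iES cells and not detectably in the ICM. *Spred1* also differed (-1.28, SE 0.39, adjusted p = 0.026), but lost that call without any 1 of the 4 ICM libraries or the 2 treated 2iES libraries (differences from -1.37 to -1.17) and with limma on log2(TPM + 1) (-0.50, adjusted p = 0.13). The effects on *Spry4* differed by 0.01 (SE 0.19, adjusted p = 0.99), the smallest difference among the 10. The ICM and 2iES cells also differ in dose, in length of treatment and in culture.

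The rest of the pathway was followed through 6 lists, of 85 genes in all. In two-cell embryos 2 of the 68 list genes tested passed, against 8.56% of all genes. One was *Frs2*, the adaptor that links the receptor to RAS, which fell from 3.73 to 4.76 TPM to 1.54 to 1.84 TPM (log2 fold change -1.16, SE 0.18, adjusted p = 0.0023). In morulae the count was 0 of 58 in edgeR. In the ICM 55 of 68 passed, 30 higher and 25 lower (80.9%, against 76.9% of all genes), and in 2iES cells 38 of 71, 23 higher and 15 lower (53.5%, against 54.6%).

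In the ICM the list that stood lowest was that of ERK-induced transcription factors and other ERK targets, of which 12 of the 14 tested fell and 0 rose, against 38.5% of all genes lower and 38.4% higher. In the same libraries the summed EPI markers went from 1127 to 1166 TPM to 623 to 627 TPM. The PrE markers went from 685 to 692 TPM to 1315 to 1327 TPM, and the TE markers from 84.6 to 88.6 TPM to 799 to 800 TPM. The part of these shifts in the changes of the list was not tested. The median log2 fold change of the list was -1.38, beside 0.01 over all genes tested. *Etv5*, an ETS factor induced by FGF signals, fell from 22.4 to 22.6 TPM to 4.28 to 4.70 TPM (-2.36, SE 0.06, adjusted p = 9.50e-29). *Ccnd1*, which encodes cyclin D1, fell from 7.39 to 7.96 TPM to 1.41 to 1.82 TPM (-2.25, SE 0.14, adjusted p = 5.07e-17). In 2iES cells the same list was divided, with 4 of the 13 tested higher and 6 lower, against 26.5% and 28.1% of all genes, and a median of -0.57, beside 0.03 over all genes. There *Fosl1*, an AP-1 subunit, rose from 0.02 to 0.18 TPM to 3.37 to 4.10 TPM (5.29, SE 0.54, adjusted p = 3.96e-04), and *Myc* fell from 6.52 to 9.78 TPM to 2.42 to 2.57 TPM (-1.62, SE 0.22, adjusted p = 0.0012). *Etv5* was 0.46 higher (SE 0.12, adjusted p = 0.017), and its effect differed between the ICM and 2iES cells by -2.83 (SE 0.14, adjusted p = 3.80e-06).

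**Figure D5:**
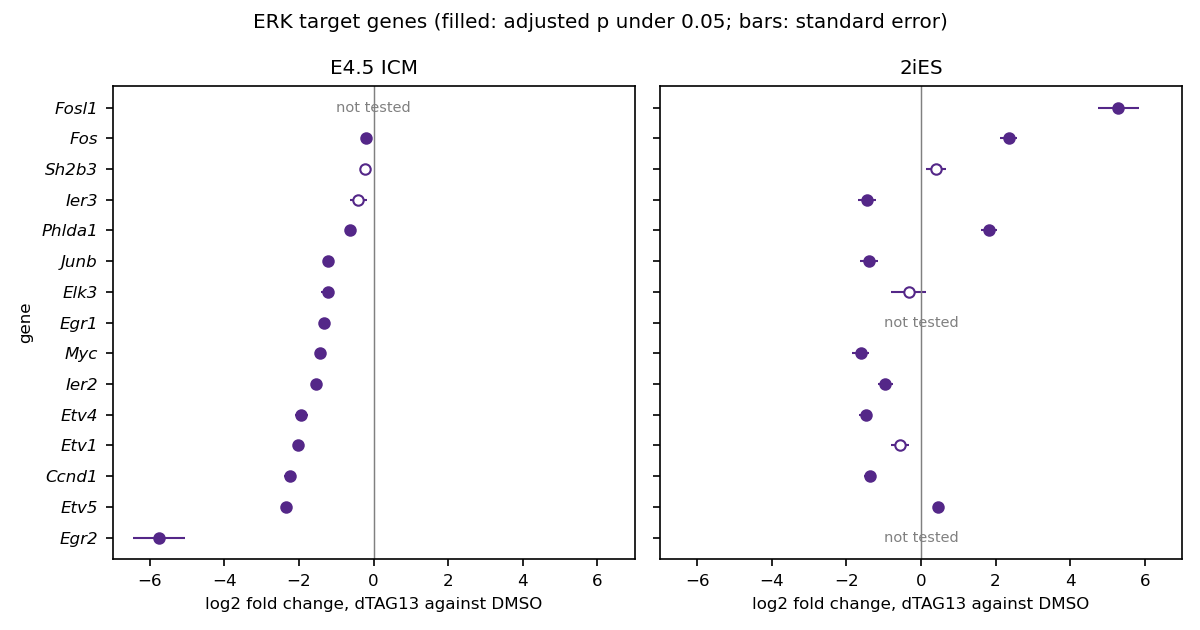
Log2 fold change with dTAG13 for the genes of the ERK target list in the ICM and in 2iES cells, with standard errors as bars and filled points for an adjusted p under 0.05. Every tested gene lies left of 0 in the ICM, 12 of 14 of them filled, and the 2iES panel has filled points on both sides.

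The counts of the remaining lists stand beside 38.4% of all genes higher and 38.5% lower in the ICM, and 26.5% higher and 28.1% lower in 2iES cells. Of the other FGF ligands 4 were tested in the ICM and 3 rose. Control ICM held *Fgf10* at a mean of 22.6 TPM and *Fgf3* at 21.9 TPM, near the 22.6 TPM of *Fgf4*. With dTAG13 *Fgf10* was at 25.2 TPM (0.13, SE 0.04, adjusted p = 0.0035) and *Fgf3* at 27.4 TPM (0.37, SE 0.06, adjusted p = 1.02e-06). In 2iES cells 3 of 9 other ligands rose and 3 fell. *Fgf18* rose in both, from 0.24 to 0.27 TPM to 0.87 to 1.18 TPM in the ICM (2.09, SE 0.51, adjusted p = 4.05e-04) and from 0.04 to 0.07 TPM to 0.82 to 1.10 TPM in 2iES cells (4.12, SE 0.65, adjusted p = 0.0022). In 2iES cells *Fgf17* fell from 1.96 to 4.53 TPM to 0.12 to 0.27 TPM (-4.15, SE 0.56, adjusted p = 0.0012) and *Fgf10* from 1.03 to 1.21 TPM to 0.17 to 0.19 TPM (-2.54, SE 0.26, adjusted p = 3.96e-04). Among co-receptors and heparan sulphate enzymes 8 of 13 rose and 1 fell in the ICM, and 6 of 12 rose and 0 fell in 2iES cells. *Fgfrl1*, a receptor-like protein without a kinase, rose in the ICM from 0.45 to 0.86 TPM to 1.82 to 1.91 TPM (1.45, SE 0.26, adjusted p = 4.94e-06), and *Gpc3*, a cell surface proteoglycan, fell from 1.11 to 1.15 TPM to 0.07 to 0.29 TPM (-2.67, SE 0.40, adjusted p = 2.52e-07).

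Of the adaptors 8 of 12 rose and 2 fell in the ICM, against 38.4% and 38.5% of all genes, and 4 of 12 rose and 1 fell in 2iES cells. *Frs3*, a relative of *Frs2*, rose in the ICM from 1.14 to 1.59 TPM to 6.50 to 7.79 TPM (1.96, SE 0.18, adjusted p = 2.68e-12). *Sos2*, an activator of RAS, rose in 2iES cells from 0.33 to 0.37 TPM to 1.91 to 2.11 TPM (2.695, SE 0.26, adjusted p = 3.06e-04). The 15 genes of the RAS, RAF, MEK and ERK core all passed in the ICM, where 76.9% of all genes did, 8 higher and 7 lower, and 3 rose and 5 fell in 2iES cells, where 54.6% of all genes passed. *Hras* rose in the ICM from 32.5 to 37.1 TPM to 81.5 to 90.0 TPM (1.40, SE 0.06, adjusted p = 3.36e-23), and *Ksr1*, a scaffold of the cascade, fell there from 0.91 to 1.46 TPM to 0.03 to 0.05 TPM (-3.51, SE 0.43, adjusted p = 3.95e-09). *Map2k2*, which encodes MEK2, a target of the inhibitor in the medium, fell in 2iES cells from 14.9 to 21.5 TPM to 3.23 to 4.19 TPM (-2.42, SE 0.23, adjusted p = 3.01e-04). Of the other feedback inhibitors 3 of 10 rose and 3 fell in the ICM, and 3 of 10 rose and 0 fell in 2iES cells, where *Dusp2*, a nuclear phosphatase, went from 0.14 to 0.15 TPM to 5.67 to 5.85 TPM (5.40, SE 0.29, adjusted p = 4.39e-05).

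Among the 10 genes themselves the patterns over the 18 libraries fell near each other for *Fgf4* and *Spry4* (Pearson r of log2(TPM + 1) = 0.96), for *Fgfr2* and *Dusp4* (0.95) and for *Fgfr2* and *Fgfr3* (0.92). *Spry2* and *Spry4* were the most unlike pair (-0.69). Of 9863 protein-coding genes with a mean of at least 5 TPM in a group, the most like in pattern were *Tcl1* (0.995) and *Nap1l4* (0.98) to *Spry4*, *Slc6a15* and *Enox1* to *Fgf4* (0.99 for both), *B4galnt1* and *Dab2* to *Fgfr2* (0.98 for both), *Gm36028* (0.99) and *Col4a1* (0.98) to *Fgfr3*, *Mfsd1* (0.99) and *Pnliprp2* (0.98) to *Dusp4*, *Zfp157* and *Cox6a1* to *Spry2* (0.98 for both), and *Sfrp1* (0.97) and *Cited2* (0.96) to *Dusp6*. The nearest were less like for *Fgfr1*, with *Clcn3* (0.91) and *Tead1* (0.89), for *Fgfr4*, with *Elmo3* (0.88) and *Sec24d* (0.87), and for *Spred1*, with *Sgsm3* and *Zfp317* (0.83 for both). *Dab2* and *Col4a1* are also on the list of PrE markers. The 18 libraries are 8 groups of 2 or 3 that share their stage, so these values describe mainly differences between stages. Those for *Fgf4* use its total TPM, most of which was assigned to the short transcript in two-cell libraries.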

How the data were processed

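Gene tables of 18 RNA-seq libraries were used (8 groups, 2 or 3 libraries each, which the study describes as biological replicates for two-cell embryos, ICM and 2iES cells). The cDNA was made with SMART-Seq v4 and fragmented with Nextera XT, without strand. After trimming with Trimmomatic 0.39 and alignment by STAR (GRCm38), the authors ran RSEM and deposited expected counts, TPM, FPKM and a mean transcript length for each gene. They compared groups with DESeq2. The other libraries of the series, which are not RNA-seq, were not used here. 0 value columns belonged to samples outside the series.

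Expected counts were rounded and tested with edgeR 4.0.16 in R 4.3.3 (quasi-likelihood test, TMM scaling, two-sided) for genes that reached 10 counts in at least the number of libraries of the smaller group, with Benjamini-Hochberg adjustment over all genes tested and a threshold of 0.05. dTAG13 effects were fitted within each stage, control steps over the 9 DMSO libraries and the difference of effects over the 8 ICM and 2iES libraries. The standard error was taken as the log2 fold change divided by the square root of F. DESeq2 1.42.0, limma 3.58.1 on log2(TPM + 1) and log2(TPM + 0.1), other scalings, filters and library sets were alternatives. Functions were tested on simulated counts. Transcript shares of *Fgf4* and *Spred1* were solved from the mean length, a weighted mean of their 2 annotated lengths (GENCODE M21). The deposited FPKM served as an alternative to TPM and in a second rule, after the study's thresholds (adjusted p of 0.05, 2-fold change, mean FPKM of 1 in a group), which selected the list genes named, at most 4 in each direction at a stage. For each member the 2 genes most like it in pattern are named. *Fgf3* and *Fgf10* in the ICM are named for their level, outside the second rule. *Cubn*, *Elf5*, *Foxa2*, *Gata4*, *Gata6*, *Krt7*, *Pdgfra* and *Sox7* are named as markers. 1 further sequence is not reported here. Members, lists and tests were chosen with earlier results of these data known. In every group the replicates differed by more than sampling noise. The ratio of their variance to that of sampling was 1.63 and 1.69 in the ICM groups and 2.86 to 16.2 in the others, and the common coefficient of variation was 0.02 in the ICM fit and 0.16 to 0.28 in the other stage fits, so that a small change is called more readily in the ICM. Replicate numbers did not pair the samples. Counting intervals are exact binomial at 95%.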

Additional observations from a re-analysis of the deposited data

Results flagged for a closer look

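The change with dTAG13 differed between the ICM and 2iES cells for 5 of the 10 genes by the interaction test of edgeR. *Fgf4* fell in the ICM (log2 fold change -2.09) and was -0.38 in 2iES cells, a difference of -1.73 (SE 0.15, adjusted p = 3.61e-05). *Fgfr1* was at 0.00 in the ICM and rose by 1.22 in 2iES cells, a difference of -1.24 (SE 0.15, adjusted p = 2.65e-04). *Spry2* rose in both, by 0.33 and 1.41, and the difference was -1.10 (SE 0.14, adjusted p = 2.64e-04). *Dusp6* was at 0.08 in the ICM and fell in 2iES cells (-0.89), a difference of 0.95 (SE 0.21, adjusted p = 0.0055). *Spred1* fell in the ICM (-0.33) and rose in 2iES cells (0.94), a difference of -1.28 (SE 0.39, adjusted p = 0.026). The differences for *Fgf4*, *Fgfr1* and *Spry2* passed under every alternative run, and those for *Dusp6* and *Spred1* did not pass in 1 fit over all 18 libraries (adjusted p = 0.45 and 0.065). *Spred1* also did not pass with limma on log2(TPM + 1) (-0.50, adjusted p = 0.13) or without any 1 of 6 of the 8 libraries. Groups of 2 or 3 libraries are too small to single out 1 library.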

How the results depend on the processing

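The number of members past the threshold was 0 in two-cell embryos and became 2 with upper-quartile scaling, DESeq2 or 1 fit over all 18 libraries, and 1 with library totals or with at least 10 counts required in every library. In the ICM it was 7 and became 2 in the fit over 18 libraries, where the spread is shared by all stages. From control morulae to ICM it was 3 and became 9 with limma on log2(TPM + 1) and 5 in a fit of the 2 neighbouring groups. The difference of effects went from 5 to 3 in the fit over 18 libraries. With a library left out, where a lone sample of a pair is assumed to vary like the other groups, the counts were 6 to 7 in the ICM, 3 to 6 in 2iES cells (3 without dTAG13 replicate 1), 7 to 8, 2 to 3 and 4 at the 3 control steps, 4 to 5 for the difference and 0 at the earlier stages. With FPKM in place of TPM 6 of 10 members kept the order of their 8 group means. Causes were not tested.

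Of 1042 values of single members under alternatives, 971 kept their side of the threshold, 33 passed in place of missing it, 34 the reverse, and 4 turned in sign with a call on one side. These 4 come from tests on TPM, which also depend on transcript length. In the ICM *Spred1* became 0.10 with log2(TPM + 1) and 0.13 with log2(TPM + 0.1), against -0.33, and *Fgfr1* became 0.38 with log2(TPM + 0.1). The difference of effects for *Fgfr3*, which had 0 to 2 counts in the 2iES libraries, became 0.40 with log2(TPM + 1), against -1.63. Upper-quartile scaling moved the median change of all genes by 0.12 in two-cell embryos, 0.10 in the ICM, 0.18 in 2iES cells and 0.16 at the first control step, and library totals moved it by -0.33 from the ICM to 2iES cells. *Fgfr2* in the ICM passed under these 2 scalings (0.14 and 0.10). Counts of list genes past the threshold stayed within 1.5 times under 3 scalings.

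Replicates with the same number did not deviate together (r = 0.02, 0.05 and 0.06 in two-cell embryos, 0.01 in morulae and in the ICM, -0.13 in 2iES cells). With the replicate number as a block, 0, 0, 7 and 5 members passed at the 4 stages and 5 for the difference of effects, as without it. With crossed pairs in 2iES cells, chosen after seeing the data, 5 passed. Every library of at least 1 group had under 20 counts for *Fgfr3*, *Fgfr4*, *Dusp4* and *Spry4*, which limits their values there.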
